A study of Homo sapiens with 40 samples.

Results

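The genes described here are 35 genes of the integrated stress response and the unfolded protein response, chosen by symbol from a table of 59251 gene symbols. They fall into an ATF4 arm of 18 genes (EIF2AK3, ATF4, ATF3, ATF5, DDIT3, CEBPB, CEBPG, PPP1R15A, CHAC1, DDIT4, SESN2, ASNS, PSAT1, PHGDH, PSPH, VLDLR, GDF15 and STC2) and an XBP1/ATF6 arm of 17 genes (ERN1, ATF6, XBP1, HSPA5, HSP90B1, HYOU1, CALR, DNAJB9, DNAJC3, SDF2L1, CRELD2, MANF, PDIA4, PDIA6, HERPUD1, EDEM1 and SEL1L). Of the 19703 genes that passed a filter on low counts, 34 were among them. The exception was SESN2, a stress-induced inhibitor of mTORC1 signalling, which had 0 to 9 counts per library and was not tested. When unfolded proteins collect in the endoplasmic reticulum (ER), 3 sensors in its membrane respond, namely PERK (encoded by EIF2AK3), IRE1 (encoded by ERN1) and ATF6. PERK and its sister kinases phosphorylate the translation factor eIF2, which lowers general protein synthesis while the mRNA of ATF4 is translated more, and ATF4 then switches on genes of amino acid supply, redox balance and cell death. IRE1 splices the mRNA of XBP1, and XBP1 with the cleaved form of ATF6 raises ER chaperones and the machinery that degrades misfolded proteins. Gene counts show the amount of mRNA, and show neither ATF4 translation nor XBP1 splicing.

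RNA was sequenced from H1299 cells, an established line from a human lung cancer of the non-small cell type, as 4 cultures of each of 10 lines (40 libraries). The unedited lines, wild-type for MYO10 and JAG1, were the parental cells, the leader line 3L2 and the follower line 3F2, which stand for the front and the rear of collectively invading cells. The 7 others were CRISPR-Cas9 edited clones, made in leader cells per the title of the series. Clones 38 and 75 remained wild-type for both genes, clones 35 and 72 were JAG1 knockouts, clones 98 and 99 were MYO10 knockouts, and clone 84 was a MYO10 knockdown by its genotype label and a knockout by its title. MYO10 encodes an unconventional myosin of filopodia and JAG1 a Notch ligand. Each genotype rested on 1 or 2 clones, so that p-values measured the spread between cultures of a line and not between independent clones. In bulk RNA, fewer cells expressing a gene and less RNA of it per cell cannot be told apart.

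Libraries held 40038816 to 44013445 counts. MYO10 averaged 645 CPM (counts scaled to library size) in leaders, 491 and 441 in the wild-type clones, 63.4 and 52 in the MYO10 knockout clones and 149.8 in clone 84. Its level was 312 CPM in parentals, 0.112 in followers, and 248 and 518 in JAG1 knockout clones 35 and 72. JAG1 averaged 295 CPM in parentals and 139 in leaders, but 44.2 and 40.5 in the wild-type clones, so these controls lay below their source line. It averaged 80.5, 102 and 151 CPM in clones 98, 99 and 84, 6.49 in knockout clone 72 and 32.4 in knockout clone 35, so the mRNA gives little check of that clone's label. Of 5 epithelial markers, KRT8 and KRT18 passed the count filter and EPCAM, CDH1 and KRT19 did not. The summed epithelial level ran from 53.8 CPM to 1300.0 CPM over lines. Sums of lung epithelial, fibroblast and endothelial markers reached 1.39, 8.31 and 1.20 CPM at most, and the leukocyte sum of 52.0 to 109 CPM held 51.8 to 108 CPM of CD68. LDHA and ZYX, abundant in most cultured cells, had at most 3 and 10 counts in any library, so a low count was not read as absence of a transcript. Levels are TMM-scaled CPM (TMM, the trimmed mean of M values, corrects for composition), given as mean ± SD of 4 cultures. A gene was called, or is said to have risen or fallen, at a Benjamini-Hochberg adjusted p under 0.05 in edgeR's quasi-likelihood test if its log2 fold change was also 1 or more in size. Where a side held 2 clones, the largest p over all pairs of lines was used, also for counts at an unadjusted p. Where those pairs differed in direction, a gene could be neither called nor counted. The fit on counts summed per line, given below, used 1 contrast instead.

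The promoters of many members hold known elements of the pathway they belong to, and the sites are shown because each is a sequence that the factors of the pathway are known to read. Windows from 250 bases before to 50 bases after the RefSeq start sites (build GRCh38.p14) were found for 34 of the 35 genes, all but PSPH, and were searched on both strands. The ER stress response element, read as CCAAT, then 9 bases, then CCACG, is the site at which ATF6 acts with the factor NF-Y. It occurred in 27 of 35116 windows of all genes (0.0769%), and in 6 of 17 genes of the XBP1/ATF6 arm against 0 of 17 of the ATF4 arm. Those sites are printed 5′ to 3′ along the gene's strand, with the element in capitals on whichever strand it lay.
HSPA5 (chr9:125241381-125241419, minus strand): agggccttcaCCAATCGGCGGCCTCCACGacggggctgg
XBP1 (chr22:28800593-28800631, minus strand): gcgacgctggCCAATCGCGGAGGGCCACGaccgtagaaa
PDIA6 (chr2:10812843-10812881, minus strand): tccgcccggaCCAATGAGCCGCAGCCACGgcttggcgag
CALR (chr19:12938374-12938412, plus strand): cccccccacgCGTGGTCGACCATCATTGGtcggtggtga
CRELD2 (chr22:49918544-49918582, plus strand): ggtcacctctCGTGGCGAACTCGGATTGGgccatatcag
HSP90B1 (chr12:103930206-103930349, plus strand): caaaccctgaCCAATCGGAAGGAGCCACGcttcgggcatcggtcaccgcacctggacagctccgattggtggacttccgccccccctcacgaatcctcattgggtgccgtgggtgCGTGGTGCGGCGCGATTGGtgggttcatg

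The related element ERSE-II, read as ATTGG, 1 base, then CCACG, occurred in 19 of 35116 windows (0.0541%) and in 3 genes of the set, again all in the XBP1/ATF6 arm. They were HERPUD1, SDF2L1 and HYOU1, the last with 2 copies, and the capitals mark the element.
HERPUD1 (chr16:56932015-56932045, plus strand): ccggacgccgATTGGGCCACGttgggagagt
SDF2L1 (chr22:21642104-21642134, plus strand): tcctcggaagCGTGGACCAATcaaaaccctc
HYOU1 (chr11:119057264-119057400, minus strand): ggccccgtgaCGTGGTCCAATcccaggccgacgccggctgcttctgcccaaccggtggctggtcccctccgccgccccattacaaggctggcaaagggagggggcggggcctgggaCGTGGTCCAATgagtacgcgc

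ATF4 binds a composite element with members of the C/EBP family, and its core was searched as TGATGNAA. That shorter core occurred in 1270 of 35116 windows (3.62%), in 4 of 17 genes of the ATF4 arm and in 1 of 17 of the other, where the capitals mark it.
ATF3 (chr1:212565206-212565233, plus strand): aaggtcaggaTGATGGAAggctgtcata
CEBPG (chr19:33374061-33374088, plus strand): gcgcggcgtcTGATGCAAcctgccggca
CHAC1 (chr15:40953252-40953279, plus strand): tcccctgccgTTGCATCActcctgccag
ASNS (chr7:97872459-97872486, minus strand): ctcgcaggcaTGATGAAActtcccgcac
HERPUD1 (chr16:56931956-56931983, plus strand): acgcggcgggTTGCATCAgcccgtgccc
These matches describe the windows. They do not show binding in these cells, and a window without a match says only that these letters were not in it.

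Across the 10 lines the ATF4 arm varied more than the XBP1/ATF6 arm. All 45 pairs of lines were compared gene by gene, and a gene by pair result was called in 16.9% of 886635 over all genes tested. In the ATF4 arm 161 of 765 were called (21%), against 23 of 765 in the XBP1/ATF6 arm (3.01%), and among all genes of at least 10 CPM the share was 6.66%. The difference between the arms was not tested. The median ratio of the highest to the lowest line was 3.01 in the ATF4 arm, 1.80 in the XBP1/ATF6 arm, 2.38 over all genes and 1.82 over genes of at least 10 CPM, close to the XBP1/ATF6 arm. In the ATF4 arm 4 of 17 genes were called in none of the 45 pairs, namely ATF4 itself, EIF2AK3, PSAT1 and PSPH. In the XBP1/ATF6 arm this held for 12 of 17, among them the sensors ERN1 and ATF6, XBP1 and the chaperones HSPA5, HSP90B1 and CALR. The shares were 23.5% and 70.6%, against 37.6% of all genes and 61.8% of genes of at least 10 CPM. Among members of at least 10 CPM (14 and 16 genes), 19.8% and 3.19% of gene by pair results were called. Their median ratios were 2.92 and 1.83, and 28.6% and 68.8% of them were called in no pair. The widest ranges belonged to STC2 (14.7 times), GDF15 (8.46), ATF3 (7.74), DDIT4 (6.48), CHAC1 (4.41) and CEBPG (3.75) in the ATF4 arm, and to EDEM1 (3.29), PDIA4 (2.69), CRELD2 (2.11), DNAJB9 (2.08), MANF (2.07) and PDIA6 (1.96) in the other.

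**Figure D1:**
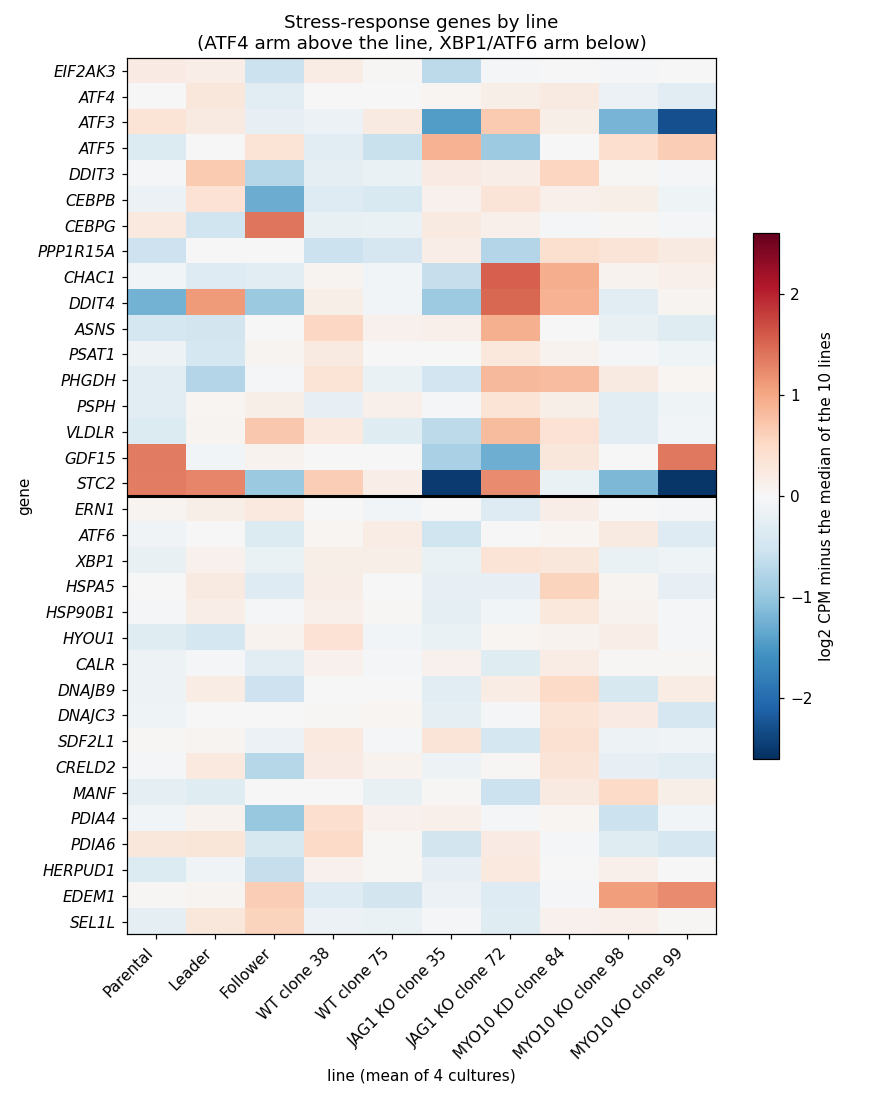
Level of each of the 34 tested genes in each of 10 lines, as log2 CPM (mean of 4 cultures) minus the gene's median over lines; red is above and blue below that median. Strong colour is found mainly above the black line, in the ATF4 arm, with STC2 lowest in JAG1 knockout clone 35 and MYO10 knockout clone 99 and CEBPG highest in followers.

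ATF4, the transcription factor at the head of its arm, was highest in leaders and lowest in MYO10 knockout clone 99 and followers. The 4 leader cultures had 511, 475, 494 and 494 CPM, and clone 84 had 477, 475, 501 and 435. JAG1 knockout clones 72 and 35 averaged 446 ± 5.04 and 413 ± 20.04, wild-type clones 75 and 38 404 ± 21.4 and 396 ± 11.3, and parentals 399 ± 34.4. Clone 98 averaged 364 ± 33.9, and the follower and clone 99 cultures had 335, 340.0, 321 and 325 and 346, 319, 352 and 297. The range over lines was 1.5 times. In that order only clone 98 and followers differed among neighbouring lines (adjusted p = 0.0271). DDIT3, which encodes the pro-apoptotic factor CHOP, had the same 2 highest lines, leaders at 30.05 ± 3.95 CPM and clone 84 at 28.7 ± 11.4. Its lowest line was followers at 11.05 ± 0.909, the only neighbouring pair that differed being clone 38 and followers (adjusted p = 0.0378). Clone 99, lowest for ATF4, lay at 19.1 CPM of DDIT3, above parentals and clones 75 and 38. Over the means of the 10 lines, most of them clones of 1 source line, DDIT3 correlated with ATF4 at a Pearson r of 0.81. The median r between 2 genes of the arm was 0.10 (136 gene pairs) and that within the XBP1/ATF6 arm 0.24. Between the arms it was also 0.10 (289 gene pairs), and over all genes of at least 10 CPM it was 0.004. In the XBP1/ATF6 arm, r with ATF4 ran from -0.68 for EDEM1 to 0.84 for CRELD2. STC2, a secreted stanniocalcin induced by ER stress, correlated with ATF3 at 0.91 and with ATF5 at -0.87. Its r with PDIA6 of the XBP1/ATF6 arm was 0.92. These correlations over 10 line means are descriptions.

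**Figure D2:**
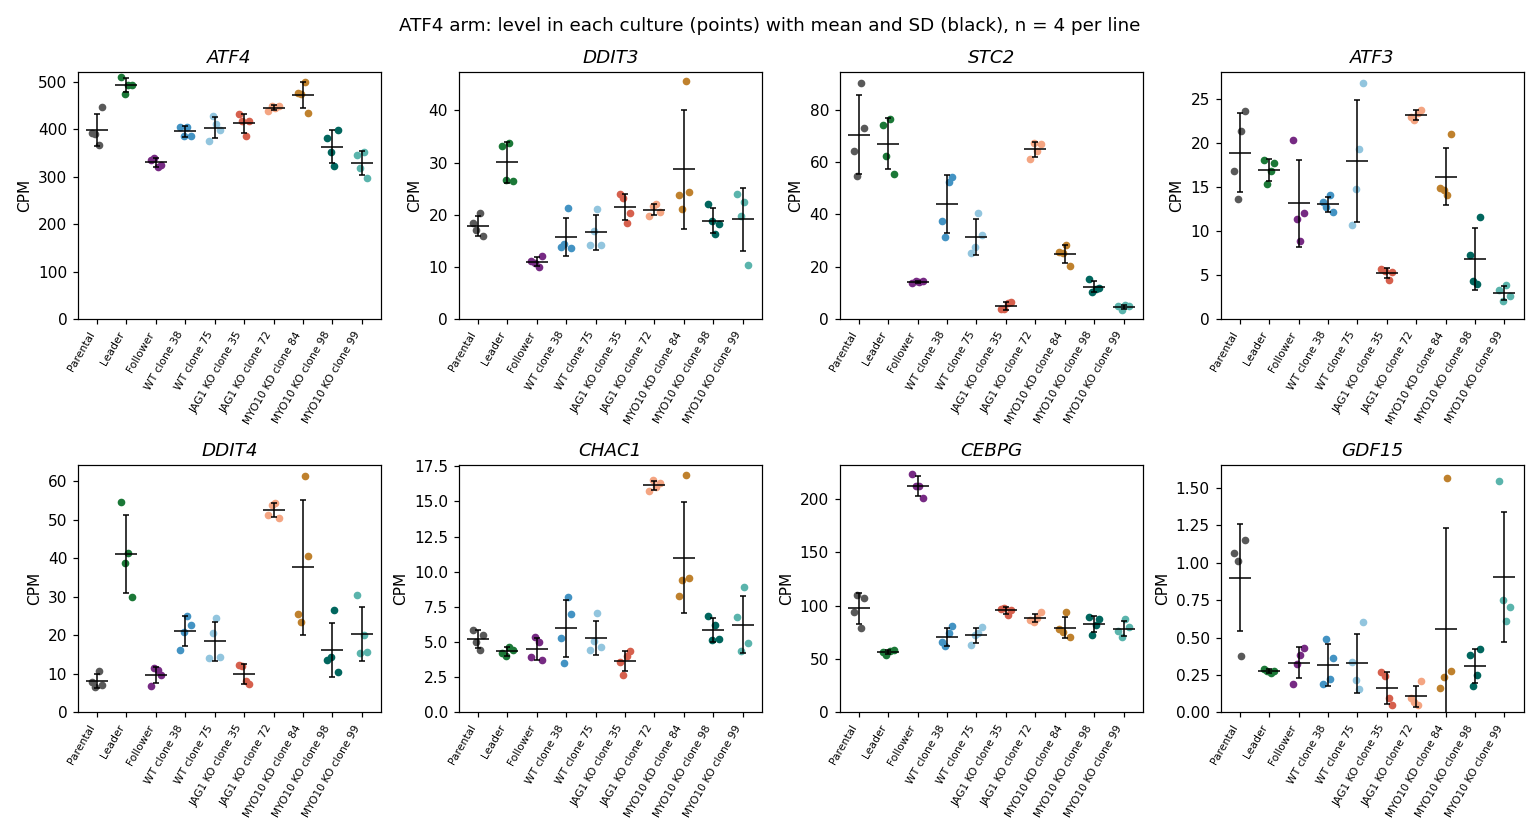
CPM (TMM-scaled, linear axis) of 8 ATF4-arm genes in every culture, coloured by line, with the mean and SD of 4 cultures in black; the SD bar of GDF15 in clone 84 runs below 0 and is cut at the axis. ATF4 spans 1.5 times over lines while STC2 spans 14.7 times, and single cultures of clone 84 stand above their line for DDIT3, CHAC1 and GDF15.

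XBP1, whose mRNA is the substrate of IRE1, ran over lines by 1.48 times. The highest lines were clone 72 with 57.2, 61, 60.5 and 61.6 CPM and clone 84 with 56.3, 51.4, 73.2 and 50.9. Clones 75 and 38 averaged 52.2 ± 0.997 and 51.7 ± 3.30, leaders 50.3 ± 3.75 and clone 99 43.4 ± 4.85. The lowest were clone 98, clone 35, followers and parentals, at 41.6 ± 5.43, 41.4 ± 4.46, 41.2 ± 3.07 and 40.6 ± 1.97. HSPA5, the chaperone that holds the ER sensors inactive until unfolded proteins draw it away, ran by 1.93 times. Clone 84 and leaders averaged 975 ± 219.8 and 747 ± 69.6 CPM and differed (adjusted p = 0.00387), the single neighbouring pair in that order that did. Clones 38 and 98, parentals and clone 75 followed at 727 ± 108, 670.4 ± 68.03, 643 ± 19.9 and 632 ± 70.8. The lowest lines were clones 99, 35 and 72 and followers, at 553 ± 45.8, 551 ± 34.5, 548 ± 17.8 and 506 ± 23.8. Over the 10 line means HSPA5 correlated with HSP90B1 at a Pearson r of 0.87 and with CRELD2 at 0.78.

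Further sensors, chaperones and degradation genes of the XBP1/ATF6 arm are given by their lowest and highest lines. ERN1 ran from 10.9 CPM in clone 72 to 16.3 in followers, and ATF6 from 46.8 in clone 35 to 78.8 in clone 98. The chaperone HSP90B1 ran from 750.2 CPM in clone 35 to 1065 in clone 84, and CALR, which folds glycoproteins, from 573 in clone 72 to 825 in clone 84. The HSPA5 partners DNAJC3 and SDF2L1 were also highest in clone 84, at 44.8 and 44.5 CPM. Their lowest lines were clone 99 at 25.7 and clone 72 at 24.7. HERPUD1 and SEL1L, both parts of the complex that exports misfolded proteins for degradation, took opposite ends in the same lines. HERPUD1 was lowest in followers (26.3 CPM) and highest in clone 72 (47.3), and SEL1L was lowest in clone 72 (79.1) and highest in followers (147). None of the genes named so far in this paragraph as ranging over lines, from ERN1 to SEL1L, was called in any of the 45 pairs of lines. EDEM1 fell into separate levels. Clones 99 and 98 had the highest means, with no call between them (adjusted p = 0.0743), followers lay below them at 24.1 ± 1.54 CPM (adjusted p = 4.87e-07 against clone 98), and leaders below followers at 16.2 ± 1.19 (adjusted p = 2.38e-09).

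Leaders and followers were compared first, since they stand for the front and the rear of an invading group. Leaders had more DDIT3, CEBPB, DDIT4 and STC2 of the ATF4 arm, less CEBPG, and more PDIA4 of the XBP1/ATF6 arm. Those 6 of 34 genes (17.6%) were called, 5 higher and 1 lower in leaders, where 25.4% of all 19703 genes were. DDIT3 had 33.2, 26.8, 33.7 and 26.5 CPM in the leader cultures and 11.2, 10.8, 10.02 and 12.2 in the follower cultures (log2 1.44 ± 0.21, adjusted p = 4.82e-07). The factor CEBPB averaged 19.1 ± 1.69 against 5.97 ± 0.533 CPM (log2 1.68 ± 0.12, adjusted p = 3.58e-16). In both genes every leader culture was above every follower culture. CEBPG, a dimer partner of ATF4, went the other way, with 56.6, 53.8, 57.5 and 58.3 CPM in leaders and 223, 212, 212 and 201 in followers (log2 -1.91 ± 0.09, adjusted p = 4.20e-20).

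DDIT4 encodes REDD1, an inhibitor of mTORC1. Its leader cultures had 54.5, 38.8, 41.4 and 29.9 CPM and its follower cultures 6.98, 11.5, 10.98 and 9.64 (log2 2.08 ± 0.29, adjusted p = 3.66e-07). STC2 had 73.99, 62.3, 76.4 and 55.4 CPM in leaders and 13.7, 14.5, 14.2 and 14.5 in followers (log2 2.24 ± 0.18, adjusted p = 3.43e-12). Neither gene's cultures overlapped between these lines. Among ER folding enzymes, the disulfide isomerase PDIA4 had 301, 289, 338 and 293 CPM in leaders and 139, 138, 149 and 146 in followers (log2 1.09 ± 0.08, adjusted p = 8.01e-14). CRELD2, an ER-resident secreted protein, had 35.6, 33.2, 42.8 and 35.5 against 16.9, 17.2, 18.7 and 20.9 CPM. It lay just under the fold minimum (log2 0.999 ± 0.09, adjusted p = 2.34e-13). The remaining members stayed under the fold minimum as well. The sensors EIF2AK3 and ATF6 differed by log2 0.72 ± 0.10, adjusted p = 1.01e-08, and log2 0.34 ± 0.06, adjusted p = 1.29e-06, and ERN1 by log2 -0.09 ± 0.10, adjusted p = 0.433. The master chaperone HSPA5 (BiP) averaged 747 ± 69.6 CPM in leaders and 506 ± 23.8 in followers (log2 0.56 ± 0.11, adjusted p = 3.89e-05). XBP1 averaged 50.3 ± 3.75 and 41.2 ± 3.07 CPM (log2 0.29 ± 0.09, adjusted p = 0.00509).

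Against parental cells, leaders were called for 2 of 34 genes (5.88%), 1 higher and 1 lower, where 9.76% of all genes were. DDIT4 had 7.995, 6.51, 10.7 and 7.25 CPM in the parental cultures, all below the leader cultures (log2 2.34 ± 0.30, adjusted p = 1.83e-07). GDF15, a secreted stress cytokine, had 1.06, 1.01, 0.375 and 1.15 CPM in parentals and 0.293, 0.279, 0.264 and 0.274 in leaders (log2 -1.69 ± 0.53, adjusted p = 0.00854). Its libraries held only 11 to 49 counts in those lines, and the lowest parental culture was close to the leaders. Followers differed from parentals in 5 of 34 genes (14.7%), 2 higher and 3 lower, against 20.3% of all genes. CEBPG and the lipoprotein receptor VLDLR rose in followers (log2 1.12 ± 0.09, adjusted p = 1.46e-13, and log2 1.05 ± 0.12, adjusted p = 1.89e-10). CEBPB, STC2 and GDF15 fell (log2 -1.15 ± 0.12, adjusted p = 4.40e-11; log2 -2.31 ± 0.18, adjusted p = 2.45e-12; log2 -1.43 ± 0.51, adjusted p = 0.013). Parental cultures had 64.03, 54.6, 90.1 and 72.9 CPM of STC2, all above the followers, while the GDF15 cultures of both lines overlapped. Both comparisons share the parental cultures. VLDLR averaged 19.1 ± 1.83 CPM in followers and 9.25 ± 1.61 in parentals. VLDLR was no longer called without follower replicate 2 or parental replicate 4 (log2 0.99 and 0.93) or with library totals in place of TMM (0.97).

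**Figure D3:**
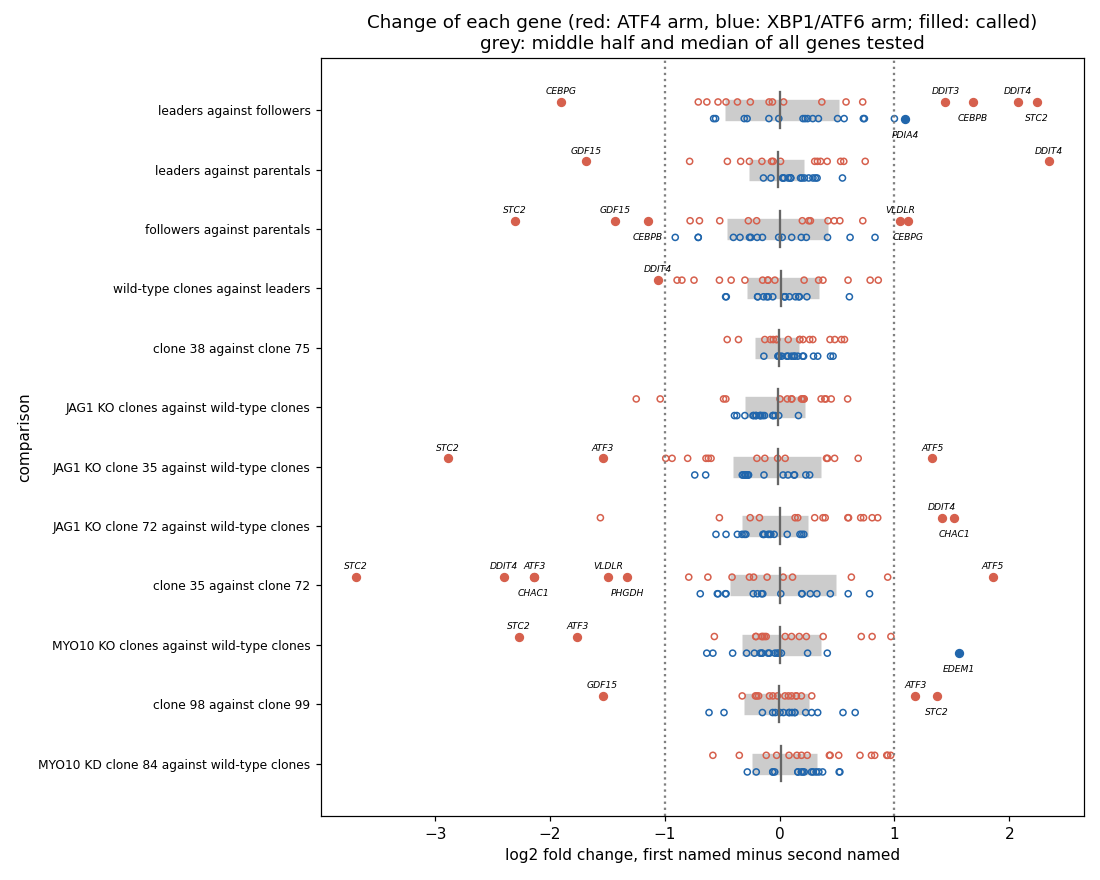
Log2 fold change (first named line minus second) of each tested gene in 12 comparisons, red for the ATF4 arm and blue for the XBP1/ATF6 arm; filled points were called and are named, dotted lines mark the fold minimum, and grey bars show the interquartile range of all genes with their median. Apart from PDIA4 and EDEM1, every filled point belongs to the ATF4 arm.

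The wild-type clones 38 and 75 passed through editing and cloning without loss of either target gene, and serve as the shared controls of every comparison of a knockout or knockdown clone below. Between them no member was called by edgeR or DESeq2 (14 of 34 at an unadjusted p under 0.05), where 4.37% of all genes were. The smallest adjusted p among members belonged to PDIA6, another disulfide isomerase, with 442, 433, 459 and 422 CPM in clone 38 and 324, 329, 321 and 298 in clone 75 (log2 0.46 ± 0.05, adjusted p = 1.51e-10). Compared with leaders, both wild-type clones had less DDIT4, the single member called of 34 (2.94%, against 9.98% of all genes). Its cultures had 16.1, 20.8, 25.1 and 22.8 CPM in clone 38 and 14.03, 20.6, 24.5 and 14.5 in clone 75, all below the leader cultures (log2 -1.06 ± 0.24, adjusted p = 0.00773). Without leader replicate 1, whose DDIT4 was the highest, it was no longer called (log2 -0.89). DDIT3 averaged 15.7 ± 3.68 and 16.6 ± 3.29 CPM in these clones, below leaders without reaching the fold minimum (log2 -0.89 ± 0.18, adjusted p = 0.00122).

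The JAG1 knockout clones 35 and 72 as 1 group gave no member called against the wild-type clones by edgeR or DESeq2 (2 of 34 at an unadjusted p under 0.05), where 2.06% of all genes were. Those 2 were CEBPB and CEBPG, at log2 0.59 ± 0.08, adjusted p = 0.0092 and log2 0.36 ± 0.06, adjusted p = 0.0384. STC2 averaged log2 -1.04 over both clones, with -3.13 to 1.05 over the 4 pairs of lines, so by the rule on direction it could not be called. Clone 35 was low in ATF3 and STC2 and high in ATF5. Clone 72 was high in CHAC1 and DDIT4. Clone 35 against the wild-type clones gave 3 calls of 34 (8.82%, against 13.2% of all genes), 1 higher and 2 lower. Clone 72 gave 2 calls (5.88%, against 7.87%), both higher. Between clones 35 and 72, 7 of 34 members differed (20.6%, against 21% of all genes), 1 higher and 6 lower in clone 35, and all 7 were of the ATF4 arm.

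The stress-induced factor ATF3 had 5.74, 5.53, 4.44 and 5.41 CPM in clone 35 and 22.99, 22.7, 23.5 and 23.8 in clone 72. Wild-type clones 38 and 75 had 13.4, 12.7, 14.1 and 12.1 and 10.8, 14.9, 19.4 and 26.9. Every culture of clone 35 was therefore below every wild-type culture (log2 -1.54 ± 0.25, adjusted p = 2.40e-04), and clone 72 was not called (log2 0.60 ± 0.22, adjusted p = 0.355). ATF5, a factor translated like ATF4 under stress, averaged 98.8 ± 4.27 CPM in clone 35, 43.4 ± 2.40 and 35.6 ± 1.07 in clones 38 and 75, and 27.3 ± 0.274 in clone 72. It was the member that rose in clone 35 (log2 1.33 ± 0.05, adjusted p = 2.54e-21), and its 4 lines did not overlap.

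Among the targets, STC2 moved most. Clone 35 had 3.71, 3.70, 6.15 and 6.55 CPM, wild-type clones 38 and 75 had 37.4, 31.5, 52.3 and 54.2 and 25.2, 27.7, 40.7 and 32.2, and clone 72 had 61.1, 67.4, 64.3 and 66.9. It fell in clone 35 (log2 -2.89 ± 0.18, adjusted p = 1.39e-12) and the 4 lines did not overlap except for clones 38 and 75. Between clones 35 and 72 the difference was log2 -3.69 ± 0.20, adjusted p = 2.24e-16. CHAC1, which degrades glutathione, had 15.8, 16.5, 16.05 and 16.3 CPM in clone 72. The wild-type cultures ran from 3.48 to 8.17 CPM and clone 35 had 3.56, 2.68, 4.04 and 4.37. Clone 72 was above all of them (log2 1.52 ± 0.18, adjusted p = 2.07e-06). DDIT4 likewise had 51.3, 53.8, 54.4 and 50.5 CPM in clone 72 (log2 1.41 ± 0.24, adjusted p = 4.88e-04) and 12.2, 12.1, 8.10 and 7.29 in clone 35. The latter stayed just under the fold minimum (log2 -0.99 ± 0.26, adjusted p = 0.0159).

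PHGDH and VLDLR were also lower in clone 35 than in clone 72. PHGDH, the first enzyme of serine synthesis, averaged 68.1 ± 3.98 CPM in clone 35 and 171 ± 1.51 in clone 72 (log2 -1.33 ± 0.09, adjusted p = 6.75e-15). VLDLR averaged 7.36 ± 0.672 and 20.8 ± 0.468 (log2 -1.5 ± 0.12, adjusted p = 1.15e-14). ASNS, which makes asparagine, averaged 2.91 ± 0.519 and 5.04 ± 0.285 CPM and was not called. PSAT1 and PSPH, the next enzymes of serine synthesis, averaged 180.2 ± 7.99 against 216 ± 5.71 and 35.1 ± 1.91 against 46.8 ± 1.002, also without a call. No gene of the XBP1/ATF6 arm was called in these comparisons. HSPA5 averaged 551 ± 34.5 and 548 ± 17.8 CPM in clones 35 and 72 and XBP1 41.4 ± 4.46 and 60.1 ± 1.99. The sensors EIF2AK3 and ATF6 were low in clone 35, at 8.11 ± 0.701 and 46.8 ± 3.76 CPM, against 12.5 ± 1.04 and 68.3 ± 2.48 in clone 72, short of the fold minimum (log2 -0.63 ± 0.10, adjusted p = 3.30e-07, and log2 -0.54 ± 0.06, adjusted p = 2.62e-11). The keratin sum also differed, with KRT8 at 578 CPM in clone 35 and 3.79 in clone 72. Its part in these differences was not tested.

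MYO10 knockout clones 98 and 99 shared lower ATF3 and STC2 and higher EDEM1, 3 calls of 34 (8.82%, against 8.06% of all genes). Low ATF3 and STC2 were not particular to them. JAG1 knockout clone 35 averaged 5.28 and 5.03 CPM of these genes, below the 6.81 and 12.3 CPM of clone 98. STC2 had 15.4, 10.5, 11.5 and 12 CPM in clone 98 and 5.08, 3.59, 5.45 and 5.01 in clone 99. Every culture was below those of the wild-type clones (log2 -2.27 ± 0.14, adjusted p = 6.51e-07). ATF3 had 7.29, 4.34, 3.99 and 11.6 and 3.33, 2.10, 3.92 and 2.67 CPM (log2 -1.76 ± 0.20, adjusted p = 0.00874). Replicate 4 of clone 98 reached the range of the wild-type cultures. EDEM1, a lectin that hands misfolded glycoproteins to degradation, had 33.2, 33.4, 29.8 and 34.4 CPM in clone 98 and 38.4, 33.5, 35.2 and 38.2 in clone 99. Clones 38 and 75 had 13.2, 11.2, 12.5 and 12.4 and 11.7, 11.1, 10.6 and 10.8 CPM, with no overlap (log2 1.56 ± 0.05, adjusted p = 6.00e-20). ATF5 was just short of the fold minimum (log2 0.97 ± 0.04, adjusted p = 3.58e-14), at 72.2 ± 6.92 and 81.9 ± 2.61 CPM. PPP1R15A, the phosphatase subunit that reverses eIF2 phosphorylation, averaged 95.3 ± 31.4 and 86.4 ± 9.53 CPM against 49.6 ± 3.37 and 54.3 ± 7.67 in the wild-type clones and was not called (log2 0.81 ± 0.11, adjusted p = 0.00167). With counts summed per line and the clone as the unit, edgeR called none of 19703 genes (2376 at an unadjusted p under 0.05), and the adjusted p of ATF3, STC2 and EDEM1 was 0.439, 0.472 and 0.326 on 3 residual degrees of freedom. ATF3 was also lost without clone 98 replicate 3 (adjusted p = 0.0512).

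The 2 MYO10 knockout clones differed from each other in 3 of 34 members (8.82%, against 9.55% of all genes). Clone 98 was higher in ATF3 (log2 1.18 ± 0.30, adjusted p = 0.00186) and STC2 (log2 1.37 ± 0.21, adjusted p = 2.29e-06). GDF15 was lower in clone 98 (log2 -1.54 ± 0.51, adjusted p = 0.011), with 0.386, 0.179, 0.252 and 0.421 CPM there and 1.55, 0.754, 0.613 and 0.707 in clone 99. The ATF3 difference fell to log2 0.80 without clone 98 replicate 4, and GDF15 was not called without clone 99 replicate 1 (adjusted p = 0.0756). GDF15 had 8 to 67 counts in these libraries. ATF6 averaged 78.8 ± 3.94 CPM in clone 98 and 53.8 ± 1.60 in clone 99, and the co-chaperone DNAJC3 40.6 ± 2.68 and 25.7 ± 2.59, both without a call. MANF, a secreted ER-stress protein, averaged 68.6 ± 6.89 and 54.5 ± 4.64 CPM and was highest in clone 98 of all lines.

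**Figure D4:**
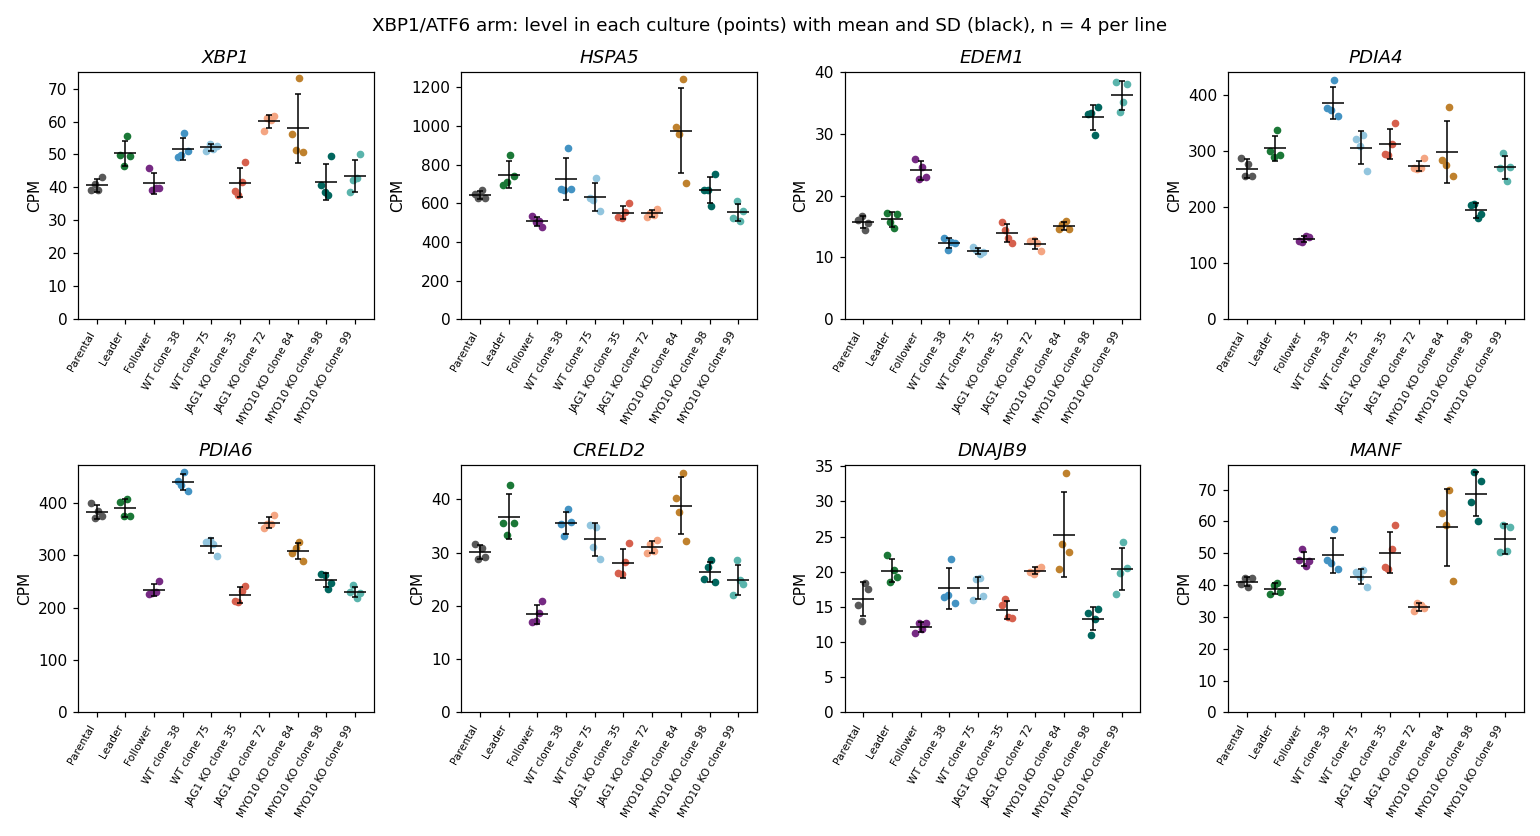
CPM (TMM-scaled, linear axis from 0) of 8 XBP1/ATF6-arm genes in every culture, coloured by line, with the mean and SD of 4 cultures in black. EDEM1 stands apart in MYO10 knockout clones 98 and 99 (29.8 to 38.4 CPM), PDIA4 is lowest in followers, and clone 84 holds the highest cultures of HSPA5, CRELD2 and DNAJB9.

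In clone 84, the MYO10 knockdown, none of 34 members was called against the wild-type clones by edgeR or DESeq2, against 7.19% of all genes. At an unadjusted p under 0.05 were 14 of 34 members and 7019 of 19703 genes. The median log2 was 0.23 over members and 0.01 over all genes. CHAC1 averaged 11 ± 3.95 CPM (log2 0.97 ± 0.19, adjusted p = 0.00173), PPP1R15A 99.7 ± 24.6 (log2 0.94 ± 0.14, adjusted p = 6.88e-05) and DDIT4 37.7 ± 17.5 (log2 0.93 ± 0.24, adjusted p = 0.0251). DDIT3 had 23.8, 21.1, 45.6 and 24.3 CPM, overlapping the wild-type cultures (log2 0.83 ± 0.18, adjusted p = 0.00332). HSPA5 had 994, 958, 1242 and 705 CPM against 676, 670.1, 888 and 672 in clone 38 and 626, 615, 729 and 559 in clone 75 (log2 0.52 ± 0.09, adjusted p = 0.00282). Clone 84 had the highest mean of 7 ER genes among the 10 lines, namely HSPA5, HSP90B1, CALR, DNAJB9, DNAJC3, SDF2L1 and CRELD2. It differed from the next line only for HSPA5 and DNAJB9 (adjusted p = 0.00387 and 0.0293). For the other genes named, the adjusted p against the next line ran from 0.118 to 0.51. The chaperones HSP90B1 (GRP94) and CALR averaged 1065 ± 155 and 825 ± 102 CPM. DNAJB9, an HSPA5 co-chaperone, had 20.4, 23.96, 34.01 and 22.8.

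Culture 3 of clone 84 was the highest of its line for 30 of 34 members (88.2%, against 28.6% of all genes), among them DDIT3, DDIT4, CHAC1, GDF15, XBP1 and HSPA5. Its XBP1 was 73.2 CPM, where the other cultures of clone 84 had 56.3, 51.4 and 50.9. Without that culture the count of calls remained 0. It became 3 without replicate 1 or replicate 2 of clone 84 and 1 without its replicate 4, and it was 2 without clone 75 replicate 3 and 1 without clone 38 replicate 3 or 4.

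Chromosomal position was examined because lines of a carcinoma can differ in copy number, which was not measured. For each member the median was taken over its neighbours within 5 Mb, in log2 CPM relative to the median of the 10 lines. Neighbours were tested genes with a mean log2 CPM above 0 over lines. CEBPG, on chromosome 19 from 33373709 to 33382686 (GRCh38), lay at 1.39 in followers and -0.51 in leaders. Its 110 neighbours had medians of 1.21 and -0.66, so the median of the region moved with the gene. PDIA4, on chromosome 7 from 149003051 to 149028505, lay at -0.99 in followers and -0.55 in clone 98, with neighbour medians of -0.75 and -0.64 (43 genes). PDIA6, on chromosome 2 from 10783391 to 10837712, lay at -0.42 in followers and -0.48 in clone 35, with neighbour medians of -0.46 and -0.36. For the next genes the neighbours moved less. EDEM1, on chromosome 3 from 5187707 to 5219958, lay at 1.08 and 1.23 in clones 98 and 99, against 0.43 and 0.39 for its 34 neighbours. CEBPB, on chromosome 20 from 50190583 to 50192690, lay at -1.29 in followers against -0.55, and ATF5, on chromosome 19 from 49928906 to 49933935, at 0.90 in clone 35 against 0.39. The median also lay with the gene in followers for ATF4 (-0.28, neighbours -0.28), ATF6 (-0.35, -0.39), SEL1L (0.58, 0.52) and DNAJB9 (-0.53, -0.67). CRELD2 (-0.73, -0.45) and HERPUD1 (-0.59, -0.36) were lower there with their neighbours, and MANF was higher in clone 98 (0.49, 0.47). In followers the neighbours of DDIT3 (-0.74, 0.24) and SDF2L1 (-0.16, 0.40) went another way. For the genes that follow, the neighbours went another way or stayed near 0. STC2, on chromosome 5 from 173314723 to 173328414, lay at -2.50 in clone 35 and -2.53 in clone 99, against 0.67 and -0.23 for its 60 neighbours. ATF3, on chromosome 1 from 212565407 to 212620777, lay at -2.29 in clone 99 against -0.05. DDIT4, on chromosome 10 from 72273924 to 72276036, lay at 1.10 in leaders against 0.10, and CHAC1, on chromosome 15 from 40953471 to 40956512, at 1.56 in clone 72 against 0.06. The part of the neighbourhood in these differences was not tested.

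**Figure D5:**
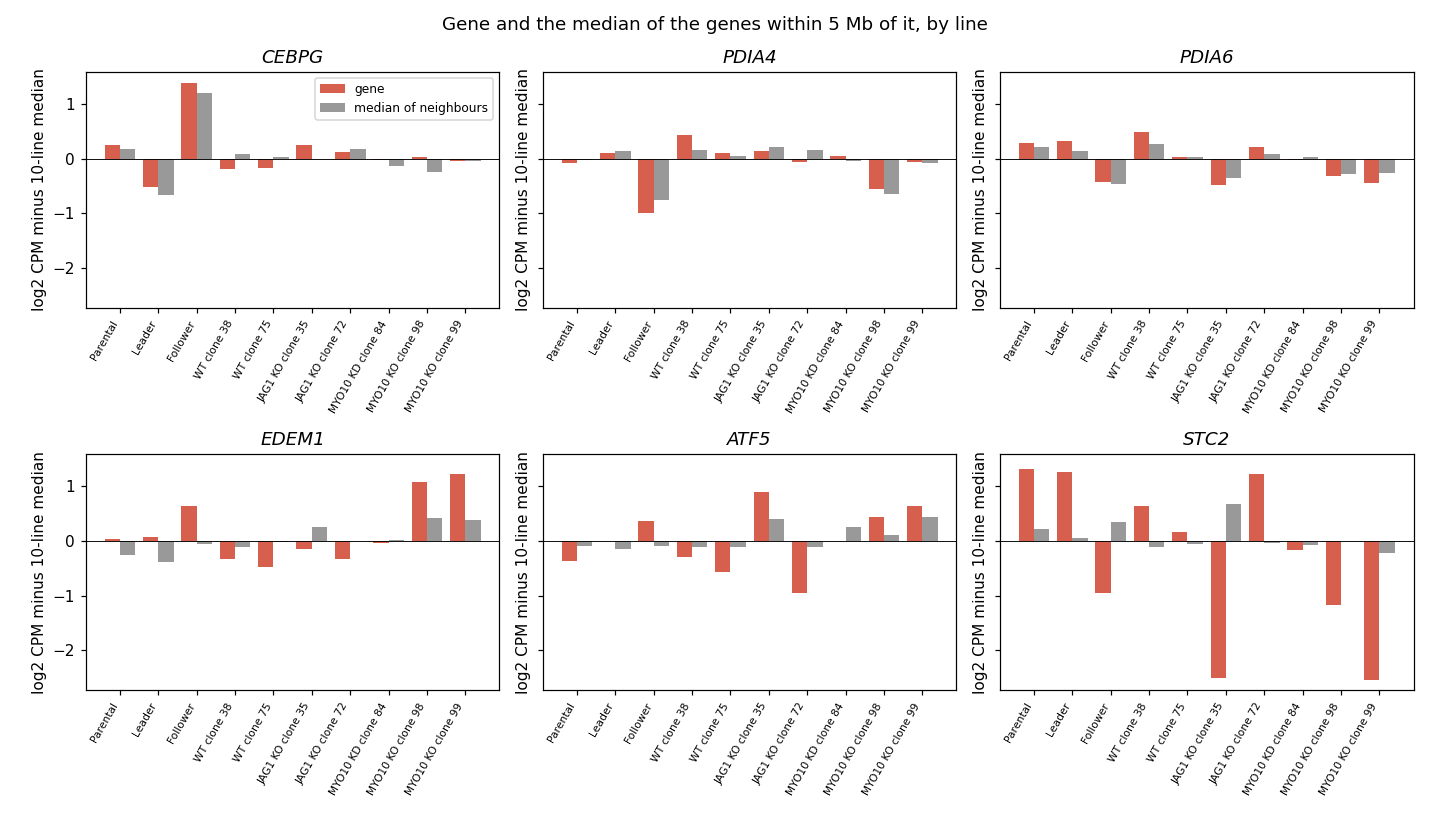
Log2 CPM of 6 genes in each line minus the gene's median over 10 lines (red bars). Grey bars give, on the same scale, the median of the neighbours within 5 Mb, chosen as in the text. Grey follows red for CEBPG, PDIA4 and PDIA6, in part for EDEM1 and ATF5, and not for STC2, where clone 35 has -2.50 for the gene and 0.67 for its neighbours.

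Reads of some members could not be separated from overlapping genes, because the strand setting of the counting is not given in the sources used here. In the GENCODE 29 annotation 41.2% of the exonic bases of DDIT4 overlap an antisense gene, DDIT4-AS1, and 31.6% of those of DDIT3 overlap genes on the other strand. For PDIA6, ATF5, EIF2AK3 and CEBPB the shares were 25.2%, 21.2%, 15.1% and 11.8%. Of ASNS, 44.6% overlap a gene on the same strand. STC2, ATF3, CEBPG, CHAC1, GDF15 and HSPA5 overlap none.

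Other genes of the same pathways were read from lists drawn up by function and not by how the genes moved. Of 23 further ATF4 targets tested, 6 were lower and 0 higher in clone 35 than in clone 72, with a median log2 of -0.37. That was 26.1% called, against 21% of all genes. Clone 35 against the wild-type clones gave 4 lower and 0 higher (17.4%, against 13.2% of all genes). One of them was SLC7A11, the cystine transporter, which averaged 12.6 CPM in clone 35 and 68.6 in clone 72 (log2 -2.44 ± 0.27, adjusted p = 4.76e-09). Another was TRIB3, a pseudokinase that restrains ATF4, at 7.502 and 23 CPM (log2 -1.62 ± 0.24, adjusted p = 6.87e-07). In clone 84 TRIB3 rose to 44.5 CPM from 20.3 and 16.4 in the wild-type clones (log2 1.29 ± 0.19, adjusted p = 1.61e-04). Of the 23 further targets 2 were called there, TRIB3 among them (8.7%, against 7.19% of all genes). Culture 3 of clone 84 had 87.6 CPM of TRIB3 and the other 3 cultures 28.2 to 32.6, and without culture 3 the gene was no longer called (log2 0.73, adjusted p = 3.7e-04). Leaders against followers gave 1 higher and 1 lower of the 23 (8.7%, against 25.4% of all genes).

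None of 18 further genes of ER-associated degradation was called in any of the 12 comparisons by edgeR, in which 2.06% to 25.4% of all genes were. Of 23 further ER chaperones and folding enzymes, at most 2 rose and 1 fell in a comparison. ERO1B, an oxidase that drives disulfide formation, was called in 6 comparisons. Its rise against the wild-type clones was log2 1.34 ± 0.08, adjusted p = 3.69e-07, for clones 98 and 99 and log2 1.84 ± 0.09, adjusted p = 3.40e-15, for clone 84. It averaged 7.87, 5.78 and 9.50 CPM in clones 98, 99 and 84 against 3.51 and 2.01 in the wild-type clones. CREB3L1, an ER-anchored factor related to ATF6, was also called in 6 comparisons, and averaged 20.99 CPM in followers, 2.64 in leaders and 0.254 and 0.370 in clones 35 and 72. Of 15 eIF2 kinases and factors 1 call was made in the 12 comparisons, and of 19 cytosolic aminoacyl-tRNA synthetases, many of them ATF4 targets, also 1, against the same shares of all genes. The immediate early genes, which answer growth signals and handling of cells, lay above the wild-type clones in each edited line. In clone 84, 4 of 11 were called, all higher (36.4%, against 7.19% of all genes), with a median log2 of 0.88. The median was 1.05 in clone 35, 0.74 in clone 72 and 0.85 in clones 98 and 99 together, with 3, 1 and 1 called, all higher. Those were 27.3%, 9.09% and 9.09% of the 11, against 13.2%, 7.87% and 8.06% of all genes. The control clones also differed from each other, with a median log2 of -0.59 in clone 38 against clone 75. Between them 2 were called, both lower in clone 38 (18.2%, against 4.37% of all genes). The wild-type clones stood at a median of -0.71 against leaders, with 2 called, both lower (18.2%, against 9.98% of all genes). EGR1 had 44.4, 80.9, 94.04 and 338 CPM in the cultures of clone 84, against means of 8.66 and 32.8 in clones 38 and 75, and was not called there without culture 4 (adjusted p = 0.0989). The part of these genes in the levels of the members was not tested.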

How the data were processed

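Counts of reads per gene symbol were made and deposited by the authors for 40 libraries; the values are whole numbers with unequal totals, so they were taken as not normalized. STAR 2.7.11b, HTSeq 2.0.5, fastp 0.23.4, FastQC 0.12.0 and MultiQC 1.24.1 are named, with build hg38, in the submitters' processing notes; the strand setting and the annotation release are not given in the sources used here. Per the labels' protocols, RNA was column-purified and sequenced on a NovaSeq X-Plus, with a DNA library kit named. No molecular identifiers are named, so counts of 40038816 to 44013445 per library limit only counting error.

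The counts were analysed in R 4.3.3 with edgeR 4.0.16 (limma 3.58.1): filterByExpr by line (minimum count 10, 19703 genes kept), TMM factors of 0.952 to 1.06, 1 coefficient per line over all 40 libraries, a robust quasi-likelihood fit with 30 residual degrees of freedom, and Benjamini-Hochberg adjustment over all genes of a comparison. Standard errors cover the spread between cultures. Log2 CPM used a prior count of 2. The scripts were tested on simulated data. Alternatives used DESeq2 1.42.0, other scaling, filters and fold minimums, a replicate block, summed counts per line, and the omission of each library.

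Cultures of a line correlated at a Spearman coefficient of at least 0.9896. Replicate numbers come from the sample titles. Deviations of same-numbered cultures correlated over 0.1 in every pair for 1 of the 12 comparisons, clone 38 against clone 75 (0.292 to 0.663). Over the 45 pairs of lines this held for 6, the others being parentals with clones 38 and 99, leaders with clone 99, and clones 38 and 75 with clone 99 (0.162 to 0.407 and 0.331 to 0.545). With clone 98 not every same-numbered pair was over 0.1.

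The genes, the other lists and the comparisons were chosen with earlier results of these data known. Culture values are given for ATF4, XBP1, HSPA5, DDIT3 and the 6 members of each arm with the widest range over lines, and fold changes for called members. Members given outside this rule were chosen after their values were seen. From each other list up to 3 genes called in most comparisons could be named.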

Additional observations from a re-analysis of the deposited data

Results flagged for a closer look

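In 160 groups of 4 cultures (16 genes in 10 lines), 10 held a culture far from the 3 others by Dixon's criterion, which chance alone meets in about 1 of 20 groups. Clone 84 gave 4 of them: culture 3 for DDIT3 (45.6 CPM), GDF15 (1.57 CPM) and CHAC1 (16.9 CPM), and culture 4 for ATF3 (21.1 CPM). Culture 3 of clone 38 stood out for HSPA5 (888 CPM) and DDIT3 (21.2 CPM). The others were followers for XBP1 (45.8 CPM in culture 1) and PDIA6 (251 CPM in culture 4), clone 99 for GDF15 (1.55 CPM in culture 1) and clone 72 for PDIA4 (288 CPM in culture 4).

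Clones of 1 genotype differed from each other in some genes. JAG1 knockout clone 35 against clone 72 gave log2 differences of -2.14 for ATF3, 1.86 for ATF5, -2.14 for CHAC1, -2.40 for DDIT4, -1.33 for PHGDH, -1.5 for VLDLR and -3.69 for STC2. Both MYO10 knockout clones stood below the wild-type clones in ATF3 and STC2, yet clone 98 exceeded clone 99 by log2 1.18 for ATF3 and 1.37 for STC2, and for GDF15 the difference was -1.54. Each of these 10 differences passed the edgeR test of clone against clone.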

How the results depend on the processing

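Of 32 log2 values of called members, 25 stayed called under each of up to 49 alternatives, 7 were lost in at least 1, and 0 reversed. Of the alternatives, 40 each left out 1 library, in most cases of a line outside a given comparison. The lower fold minimums could not remove a call. The losses stand beside the results. Leaving out each library in turn gave 6 to 7 members called for leaders against followers, 2 for leaders against parentals, 4 to 5 for followers against parentals, 0 to 1 for the wild-type clones against leaders, 3 to 4 for clone 35, 2 to 3 for clone 72, 7 to 8 for clone 35 against 72, 3 for the MYO10 knockout clones, 2 to 3 for clone 98 against 99 and 0 to 3 for clone 84. Gene by pair calls ran from 179 to 190 around 184. With a fold minimum of log2 0.58 the counts in the same order of comparisons were 12, 4, 13, 7, 10, 6, 13, 6, 5 and 5, with 1 for the JAG1 knockout clones together and 396 gene by pair calls. With no fold minimum they were 26, 17, 25, 13, 17, 12, 25, 9, 14 and 13, with 2 for the JAG1 knockout clones together, 9 for clone 38 against 75 and 931 gene by pair calls. Library totals in place of TMM gave 1 for clone 84. With the clone as the unit the MYO10 knockout count was 0. A replicate block changed no call count (6 for leaders against followers, 0 for clone 38 against 75, where the numbers pair cultures, and 184 gene by pair calls). DESeq2 and the other scalings and filters kept each remaining count within 1.5 times. Low counts limit GDF15 and SESN2. ASNS had 1.92 to 5.04 CPM over lines and the same-strand overlap given above. The test between clones is limited by 3 residual degrees of freedom.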

Other observations

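Within some lines the members moved together from culture to culture, a pattern looked for after the values of clone 84 were seen. Culture 3 was the highest of its line for 30 of 34 members in clone 84 (88.2%, against 28.6% of all genes), for 23 in clone 38 (67.6%, against 29.3%), for 21 in leaders (61.8%, against 29.8%) and for 18 in clone 75 (52.9%, against 24.7%). In clones 35 and 72 culture 4 held the most, with 18 and 17 members (52.9% and 50%, against 31.6% and 28.4% of all genes). In parentals no culture held more than 9 of the 34. Over the 40 libraries the median correlation of deviations from the line mean was 0.23 within the ATF4 arm and 0.38 within the XBP1/ATF6 arm, given as a description, since libraries share their line and depth. What sets these cultures apart was not tested.

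Among the other lists, 2 of 11 cytosolic heat shock genes and 1 of 23 ER translocation and export genes were called between leaders and followers. These shares, 18.2% and 4.35%, lay below the 25.4% of all genes. HSPB1, a small heat shock protein, averaged 336 CPM in leaders and 54 in followers (log2 2.64 ± 0.08, adjusted p = 1.79e-26), and was lower in followers than in parentals as well (log2 -2.40 ± 0.08, adjusted p = 1.28e-24). SSR4, a subunit of the ER translocon-associated complex, averaged 40.03 CPM in leaders and 138 in followers (log2 -1.79 ± 0.06, adjusted p = 5.34e-27).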
